A study of Homo sapiens with 2 samples.

Results

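Contacts of the RNA-binding protein RBM47 were examined on 9 mRNAs that encode known mediators of breast cancer spread to the brain and of tumor cell invasion, PTGS2, HBEGF, EREG, ST6GALNAC5, ANGPTL4, MMP1, PLOD2, FSCN1 and L1CAM. They were chosen by function, with earlier results of these data known, and matched by gene symbol. Of the 9, 7 had at least 1 deposited RBM47 binding cluster, and ANGPTL4 and L1CAM had none. Together these 7 mRNAs held 190 of the 233546 clusters and were 7 of the 7712 genes with a cluster. For comparison, 36.2% of the protein-coding genes in RefSeq had a cluster. The binding map came from HITS-CLIP, in which RNA in living cells is fixed to its bound proteins by ultraviolet irradiation, RBM47 is recovered with an anti-Flag antibody, and the RNA fragments left on it are sequenced as tags. Overlapping tags form a cluster. The cells were MDA231-BrM2a, a brain metastatic derivative of the breast cancer line MDA-MB-231 that is not a single clone. Expression of the transgene, wild-type RBM47 with a Flag tag, was induced in all of them with doxycycline (1 ng/ml for 3 days). There was a single group with 2 replicates. No library from uninduced, untagged or non-irradiated cells was analysed here, and the background of the pull-down in each cluster is therefore not known. The listed clusters held 999047 tags of replicate 1 but 3489697 of replicate 2. The 9 mRNAs took 0.167% of the replicate 1 tags and 0.171% of the replicate 2 tags. All 4 markers that MDA-MB-231 is known for (VIM, CD44, CAV1 and AXL) held between 2335 and 8404 tags in clusters of at least 10 tags. Of 6 luminal or epithelial markers, ESR1, PGR, CDH1 and GATA3 had no cluster. Over all clusters ERBB2 had 5 tags, none of them in a cluster of at least 10 tags, and EPCAM had 11. A cluster needs both RNA and contact, so a marker without one is not shown to be absent.

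The encoded proteins act at different steps of spread. PTGS2 (cyclooxygenase 2) makes prostaglandins, HBEGF and EREG are ligands of the epidermal growth factor receptor (EGFR), and ST6GALNAC5 is a sialyltransferase that changes cell surface glycans. PTGS2, HBEGF and ST6GALNAC5 are known to help breast cancer cells pass the blood-brain barrier. The secreted protein ANGPTL4 loosens vessel walls, MMP1 cleaves fibrillar collagen, PLOD2 hydroxylates collagen lysines so that fibers can be crosslinked, FSCN1 bundles actin in invasive protrusions, and L1CAM is an adhesion molecule that lets cancer cells spread along brain vessels. Several of these mRNAs, PTGS2 above all, are short-lived and carry AU-rich elements in the 3′UTR, repeats of ATTTA that are read by proteins which speed up or delay decay.

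The stretches of 3′UTR below are shown because AU-rich elements and runs of T are the sequence features compared among these mRNAs further on. Each is a window of 30 nt with the most ATTTA, in the annotated 3′UTR of the canonical GENCODE v44 transcript on GRCh37, with ATTTA in capitals. Where windows tied, the first after the stop codon was taken. The MMP1 window, for example, holds 1 of the 3 ATTTA of its 3′UTR, and windows around the others tie with it. The deposited cluster coordinates are on another build, so these windows were not placed inside or outside a cluster by position.
PTGS2 (chr1:186643440-186643469, minus strand): ATTTATTTATTTAtatgaaccatgtctatt
EREG (chr4:75253087-75253116, plus strand): ATTTAtttcATTTAcaaaagATTTAttgta
HBEGF (chr5:139713250-139713279, minus strand): ATTTAttttattctatgtatgttaATTTAt
ST6GALNAC5 (chr1:77529410-77529439, plus strand): ATTTATTTAttgagagttttttagtgcaat
MMP1 (chr11:102660991-102661020, minus strand): ATTTAtacctcagtttgcatatttttttac
PLOD2 (chr3:145788471-145788500, minus strand): ATTTActtttcattgaattgaaATTTAttt
The PTGS2 window starts 16 nt after the stop codon and holds 3 ATTTA that overlap by their end bases. The 3′UTRs of FSCN1, ANGPTL4 and L1CAM held no ATTTA, and their windows of 30 nt with the most T are given instead, with runs of at least 5 T in capitals.
FSCN1 (chr7:5646182-5646211, plus strand): ttggtcttttaTTTTTTgtaagtgtcattt
ANGPTL4 (chr19:8439146-8439175, plus strand): ctcatggtgctggtgctgttgtgtgtaggt
L1CAM (chrX:153127640-153127669, minus strand): atctgctgtcttttctttgccatctctgct
These windows held 19 T in FSCN1, 12 in ANGPTL4 and 15 in L1CAM. The like windows held 20 T in PTGS2 and in HBEGF, and 18 in MMP1 and in ST6GALNAC5, so FSCN1 lay between these by this count. The windows of PLOD2 and EREG, marked in the same way, held the most, 23 and 22 T.
PLOD2 (chr3:145787690-145787719, minus strand): gTTTTTTTTgttgttgTTTTTgctttgttt
EREG (chr4:75252502-75252531, plus strand): tatttacTTTTTTTTTTTTcTTTTTgagat

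Tag numbers separated the mRNAs widely. Of the 7 bound mRNAs, 5 held more than 100 tags in clusters of at least 10 tags, against 39.9% of all genes with a cluster. The median over these 5 was 802 tags, against 127 tags over all 5600 genes with such a cluster. These comparisons only describe the list, because it was chosen with earlier results of these data known. ST6GALNAC5 and FSCN1 had clusters below 10 tags only. The mRNA levels were not measured in these libraries, and many copies of an mRNA and strong contact per copy cannot be told apart in any of these values.

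MMP1 stood at 0.936 tags per 1000 tags in replicate 1 and at 0.954 in replicate 2. PLOD2 stood at 0.344 and 0.362 tags per 1000 tags in replicates 1 and 2. PTGS2 stood at 0.153 and 0.187. These 3 ranges lay apart from one another, and PTGS2 was the one whose replicates differed most, at 0.170 ± 0.0240 (SD, n = 2). EREG followed with 0.0531 and 0.0533 tags per 1000 tags in replicates 1 and 2. HBEGF stood at 0.0270 and 0.0321. EREG was therefore above HBEGF in both replicates on this scale, which does not take length into account. For the other bound mRNAs all clusters were summed, and ST6GALNAC5 held 8 tags in replicate 1 and 17 in replicate 2, while FSCN1 held 1 and 5.

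**Figure D1:**
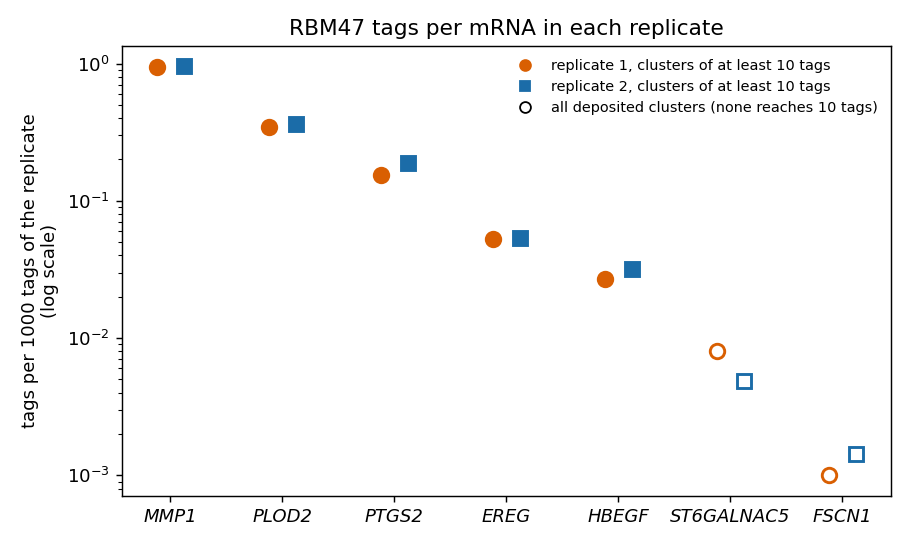
Tags per 1000 tags of a replicate (log axis) for the 7 mRNAs with a cluster; circles are replicate 1 and squares replicate 2, filled where clusters of at least 10 tags were summed and open where all clusters were summed because none reached 10 tags. The mean of MMP1 is 0.945 and that of HBEGF 0.0296.

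Set per kb of the canonical transcript, and with intron clusters left out, MMP1 had 0.472 tags per 1000 tags per kb in replicate 1 and 0.482 in replicate 2. PLOD2 had 0.0633 and 0.0693 on the same scale and PTGS2 0.0340 and 0.0415, so the first 3 places kept their order in both replicates. HBEGF had 0.0115 and 0.0136, and EREG 0.01150 and 0.01155. These last 2 overlapped, so the higher total of EREG was not seen per length. As a level per transcript length, MMP1 with 2152 tags per kb was 9th of the 4898 genes that could be placed on this scale (PLOD2 was 329th, PTGS2 653rd, HBEGF 1814th and EREG 1982nd). The median gene had 33.0 tags per kb. The genes next to MMP1 in the order by tags alone, TXNRD1 with 4273 tags and SLC30A7 with 4243 tags, had 75.9% and 92.6% of their tags in 3′UTR alone. Next to PLOD2 with 1590 tags were PAK2 with 1592 and CSNK1A1 with 1579.

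PTGS2 and both EGFR ligands were contacted over most of the 3′UTR. In PTGS2, 14 clusters labelled as 3′UTR ran nearly end to end over 2509 nt (chr1:184907592-184910101, minus strand, coordinates as deposited), covered 91.2% of that stretch, and were separated by a median gap of 10 nt. These clusters held 704 tags, 129 in replicate 1 and 577 in replicate 2. In clusters of at least 10 tags, 87.2% of the PTGS2 tags lay in 3′UTR alone (Wilson 95% interval 84.7 to 89.3), 83.7% in replicate 1 and 87.7% in replicate 2. The share over all genes was 47.2%, and the median gene had 69.8%. The PTGS2 3′UTR share was above both in each replicate. Such shares do not take the length of the 3′UTR into account, which was 2562 of the 4510 nt in the canonical PTGS2 transcript.

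The PTGS2 tags were spread over many clusters. Its largest cluster (chr1:184908868-184909174) held 156 tags, 31 in replicate 1 and 125 in replicate 2, or 19.5% of the total (16.9 to 22.3), whereas the median gene had 33.3% of its tags in its largest cluster. Without replicate 2 these shares were 32.3% for PTGS2 and 52.4% for the median gene. Clusters of 106 and 76 tags followed it on the side of the stop codon. The cluster nearest the stop codon (chr1:184909963-184910101) held 43 tags, 9 in replicate 1 and 34 in replicate 2. Its 3′ neighbor held 18 tags, 1 in replicate 1 and 17 in replicate 2. When clusters closer than 50 nt were merged, 89.96% of the PTGS2 tags fell in 1 region. The coding sequence (CDS) held 6 clusters with 103 tags, and 3 clusters labelled as both CDS and 5′UTR held 23 tags.

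**Figure D2:**
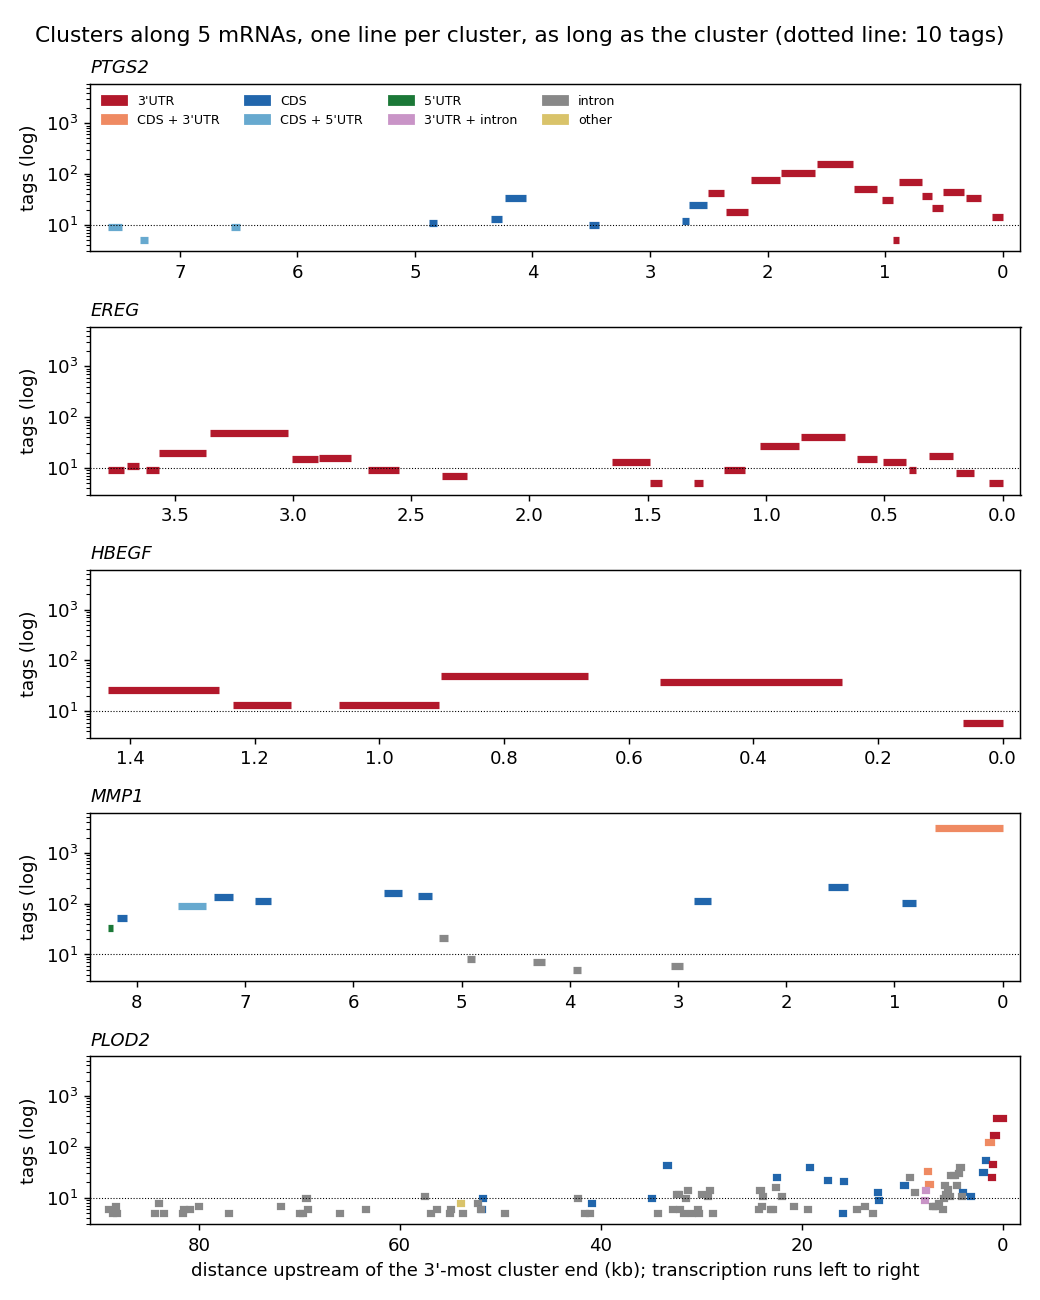
Clusters along 5 mRNAs, with 1 line per cluster as long as the cluster, the total tags on the vertical axis (log), the distance in kb upstream of the 3′-most cluster end on the horizontal axis and the location label as color; the dotted line marks 10 tags. PTGS2 clusters tile the 3′UTR, EREG and HBEGF have 3′UTR clusters alone, MMP1 has 1 cluster of 3082 tags at its 3′ end, and PLOD2 has 89 intron clusters.

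The EGFR ligands had 3′UTR clusters and no other kind. The annotated 3′UTR was 3941 of the 4615 nt in the canonical EREG transcript and 1456 of 2358 nt in that of HBEGF. EREG, the ligand epiregulin, had 21 such clusters with 310 tags, 72 in replicate 1 and 246 in replicate 2. They lay over 3781 nt (chr4:75469446-75473227, plus strand), covered 61.5% of it, and left a gap of 612 nt. Either side of that gap had a peak, one of 48 tags (chr4:75469876-75470205) with 9 tags in replicate 1 and 39 in replicate 2, and one of 40 tags (chr4:75472376-75472561) with 7 and 34. A smaller EREG cluster near the first peak was the other way round, with 9 tags in replicate 1 and 7 in replicate 2. With 11 of the 21 clusters at 10 tags or more, EREG was spread thinly.

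HBEGF, the heparin-binding ligand, had 6 clusters over 1435 nt (chr5:139692612-139694047, minus strand) that held 145 tags and covered 70.9% of it. The largest cluster (chr5:139693278-139693513) had 9 tags in replicate 1 and 40 in replicate 2, or 35.3% of the tags in clusters of at least 10 tags (27.8 to 43.5). A second cluster (chr5:139692870-139693161) had 5 and 33 tags. The interval for the largest cluster held the 33.3% of the median gene, so HBEGF was not set apart from it in this respect. With clusters of at least 30 tags the shares were 56.3% for HBEGF and 46.8% for the median gene. With clusters closer than 50 nt merged, the HBEGF share was 44.6%, just above its interval.

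**Figure D3:**
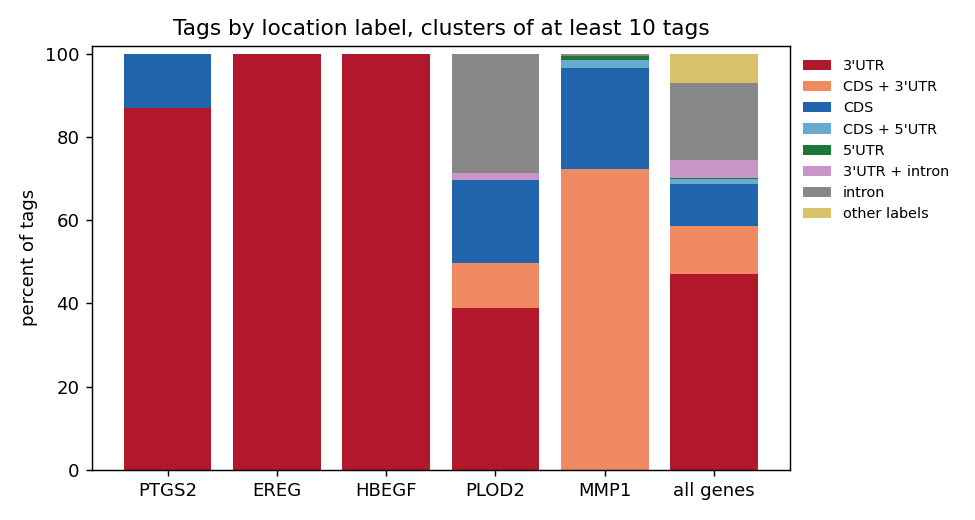
Percent of tags by location label in clusters of at least 10 tags, for 5 mRNAs and for all genes summed; a label with + stands for clusters with both locations. The 3′UTR alone holds 87.2% in PTGS2 and 100% in EREG and HBEGF, and 47.2% over all genes.

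The related EGFR pathway list of 11 genes held 6 with a cluster and 4 over 100 tags. These were EGFR with 5102 tags, the sheddases ADAM10 with 3073 and ADAM17 with 1156, which release such ligands from the membrane, and the ligand TGFA with 157. The ligands EGF, AREG, BTC and EPGN had no cluster. EGFR had 1105 tags in replicate 1 and 4041 in replicate 2, and 50.9% of its total lay in introns, where HBEGF and EREG had no cluster. Of 10 prostaglandin pathway genes, PTGES3, a co-chaperone also described as a prostaglandin E synthase, was the one over 100 tags, with 215. The other cyclooxygenase gene, PTGS1, had no cluster.

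ST6GALNAC5 was near the lower limit of detection. It had 4 clusters of 5 to 8 tags on the plus strand of chromosome 1, 1 labelled CDS (chr1:77301277-77301324, 2 tags in replicate 1 and 6 in replicate 2) and 3 labelled as unclassified exon. Another 4 clusters with no gene name lay within 10 kb downstream on the same strand and held 27 tags, 8 in replicate 1 and 20 in replicate 2. Of 13 other sialyltransferases listed, 7 had no cluster. Those above 100 tags were ST3GAL6 with 1069, ST6GAL1 with 232 and ST3GAL1 with 161. Of the ST3GAL6 tags, 66.2% lay in introns.

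MMP1 and PLOD2, which act on the matrix, held the most tags in sum. Per kb of cluster, however, MMP1 had 1946 tags, PTGS2 280 and PLOD2 230, so PTGS2 was above PLOD2 on that scale. Within a region the order was the other way in clusters of at least 10 tags. In 3′UTR alone PLOD2 had 540 tags per kb and PTGS2 312, and in CDS alone 207 and 164. The PLOD2 value over all regions also took in its intron clusters, with 130 tags per kb. MMP1 had 16 clusters, 12 of them with at least 10 tags and 8 with at least 100 tags. A single cluster of 628 nt at the 3′ end of the gene (chr11:102165837-102166465, minus strand), labelled as both CDS and 3′UTR, held 687 tags in replicate 1 and 2396 in replicate 2. That was 72.3% of the MMP1 tags (71.0 to 73.6), 73.5% in replicate 1 and 72.0% in replicate 2, and it was the 39th largest of all clusters. The share was far above the 33.3% of the median gene with clusters as deposited, and it depended on where clusters were cut. When clusters closer than 50 nt were merged, the largest region held 72.3% in MMP1, below the 89.96% of PTGS2. It held 46.5% in EREG, 44.6% in HBEGF and 42.7% in PLOD2. The median gene was not computed with merged clusters. No MMP1 cluster was labelled 3′UTR alone.

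The rest of the MMP1 message was contacted along its length. Its 8 clusters in CDS alone held between 52 and 215 tags, and 1036 in all, at 882 tags per kb of cluster, against 216 tags per kb over the CDS clusters of all genes. The largest of these (chr11:102167265-102167449) had 33 tags in replicate 1 and 182 in replicate 2. The 3′-most cluster had 4908 tags per kb. A cluster labelled CDS and 5′UTR held 90 tags and one in the 5′UTR held 33. The 5 intron clusters held 47 tags, 5 to 21 each, so introns carried little of the MMP1 total.

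PLOD2 differed from the others in its introns. It had 119 clusters over 89015 nt (chr3:147269865-147358880, minus strand). Of these, 51 held at least 10 tags, whereas the median gene had 6 such clusters. Of the 119 clusters, 89 lay in introns and held 811 tags, 209 in replicate 1 and 619 in replicate 2, with 5 to 40 tags each. The 4 clusters in 3′UTR alone held 617 tags, 140 in replicate 1 and 480 in replicate 2. Per kb of cluster this was 540 tags in the 3′UTR, 190 in the CDS and 104 in the introns. The many thin intron clusters held more tags in sum than those in 3′UTR alone, and fewer per length. With every label that includes 3′UTR counted, the 3′UTR sum was 834 tags, above that of the introns.

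In clusters of at least 10 tags the order turned. There 38.8% of the PLOD2 tags lay in 3′UTR alone (36.4 to 41.2) and 28.6% in introns (26.4 to 30.8). The 3′UTR share was 40.7% in replicate 1 and 38.0% in replicate 2, and the intron share 31.1% and 28.3%, so the 3′UTR share was the higher one in both. The 3′UTR share depended on the tag minimum, at 59.7% with clusters of at least 30 tags, where the median gene had 89.7%. It was 70.0% without replicate 2, where the median gene had 93.96%, but there the minimum of 10 tags was applied to replicate 1 alone. The intron share over all genes was 18.6%. The largest cluster (chr3:147269865-147270550) held 93 tags in replicate 1 and 282 in replicate 2, and the cluster that adjoined it upstream held 28 and 141. The last 10 kb of the clustered span held 38 of the 119 clusters and 1294 of the 2004 tags, and 324 of the 811 intron tags.

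Other genes of the extracellular matrix varied as widely. Of 21 matrix metalloproteinases and inhibitors listed beside MMP1, 17 had no cluster, among them the collagenases MMP8 and MMP13, and those over 100 tags were the inhibitors TIMP3 with 9523 tags and TIMP2 with 3529. Of 10 collagen-modifying genes, LOX, a lysyl oxidase that crosslinks collagen, had 2874 tags and the prolyl hydroxylase subunit P4HA1 had 323. The other lysyl hydroxylases PLOD1 and PLOD3 had no cluster.

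FSCN1 had 1 cluster of 72 nt in the 3′UTR (chr7:5612739-5612811, plus strand) with 1 tag in replicate 1 and 5 in replicate 2, and neither FSCN2 nor FSCN3 had one. ANGPTL4 and L1CAM had no cluster. The deposited table lists clusters with at least 5 tags in total and at least 1 in each replicate, so binding below these limits would not be seen. Of 9 angiopoietin and angiopoietin-like genes, 1 had a cluster and none a cluster of at least 10 tags. In the list of L1 relatives and the plasmin system, which cleaves L1CAM, 7 of 9 genes had a cluster. Among those over 100 tags were the plasminogen activator inhibitor SERPINB2 with 2780 tags and the activators PLAU with 267 and PLAT with 124. Over all 85 genes of these related lists, 31 had a cluster. Of these 31, 16 were over 100 tags, against 39.9% of all genes with a cluster. These lists were chosen with earlier results known, and the 36.5% of them with a cluster is close to the 36.2% of all protein-coding genes.

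The 3′UTRs of the 9 mRNAs were then compared by base composition, which the choice of mRNAs did not use. PTGS2 had 37.3% T in a 3′UTR of 2562 nt, above 94.3% of the 18339 3′UTRs of at least 100 nt, and 22 ATTTA (overlapping matches counted, mRNA strand). Of the 2590 3′UTRs of 0.8 to 1.25 times its length, 93.7% held at least 1 ATTTA and 0.0772% held at least as many as PTGS2. PLOD2 had 36.8% T and 11 ATTTA in 1277 nt, a number reached by 0.865% of 3′UTRs of similar length, where 81.0% held at least 1. EREG had 34.4% T and 20 ATTTA in 3941 nt, reached by 4.75%, where 97.3% held at least 1.

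MMP1 and HBEGF were less unusual. MMP1, which held the most tags, had 31.6% T and 3 ATTTA in a short 3′UTR of 493 nt, a number reached by 11.9% of similar 3′UTRs, of which 52.5% held at least 1. HBEGF had 28.5% T, below the median of 29.5% over all 3′UTRs, and 5 ATTTA in 1456 nt, reached by 27.6%, where 84.5% held at least 1. ST6GALNAC5 had 31.7% T and 11 ATTTA in 4340 nt, reached by 42.8%, where 98.0% held at least 1. The presence of ATTTA alone therefore set none of these 3′UTRs apart.

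The mRNAs with no cluster or 1 small cluster had little T. This did not hold for ST6GALNAC5, also without a cluster of at least 10 tags, which had 31.7% T (MMP1 had 31.6%). FSCN1 had 22.3% T, L1CAM 21.0% and ANGPTL4 19.0%, the last above 5.11% of all 3′UTRs, and none of the 3 held the ATTTA motif. It was present in 80.4%, 79.7% and 51.5% of 3′UTRs of similar length to theirs. Runs of 5 T (overlapping matches counted) per kb of 3′UTR were 15.7 in PLOD2, 10.4 in EREG, 10.1 in MMP1 and 8.98 in PTGS2. FSCN1 with 7.62 was above ST6GALNAC5 with 3.23 and HBEGF with 1.37, and ANGPTL4 and L1CAM had none. The median 3′UTR had 4.86. Over all genes the median T share was 33.8% in the 2955 genes over 100 tags, 31.3% in the 4131 with a cluster and at most 100 tags, and 27.0% in the 11253 with no cluster. Across the 4898 genes placed per transcript length, Spearman's rho between the T share of the 3′UTR and tags per kb was 0.268. Genes are not independent replicates, and these values describe one pair of libraries. The 3′UTR lengths differed along with the T share, with medians of 2476, 1497 and 825 nt in these 3 classes, and the part of length was not tested.

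**Figure D4:**
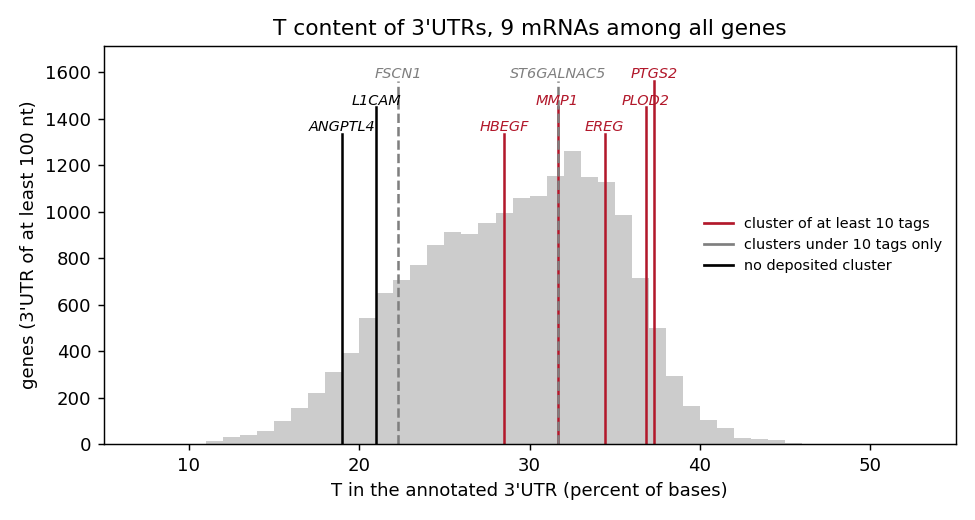
Histogram of the T share (percent of bases, horizontal axis) over 18339 annotated 3′UTRs of at least 100 nt, with the number of genes on the vertical axis; lines mark the 9 mRNAs, colored by whether they had a cluster of at least 10 tags, smaller clusters or none. PTGS2 and PLOD2 lie at 37.3% and 36.8%, and ANGPTL4, L1CAM and FSCN1 between 19.0% and 22.3%.

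The split of tags between the replicates set none of these mRNAs apart. In an exact two-sided binomial test of each gene's split between the replicate columns, with Benjamini-Hochberg adjustment over 5600 genes, none of the 5 testable mRNAs passed, against 23 genes or 0.411% of all those tested, and none had an unadjusted p under 0.05. The smallest adjusted p, for MMP1, was 0.893 in this exact test, with 21.9% of its tags in replicate 1 (20.7 to 23.2) against 20.96% over all genes. In the same exact test over all 233546 clusters, 26 passed, or 0.0111%, and none of the 190 clusters did, while 6 had an unadjusted p under 0.05. The test compares these libraries and not conditions.

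Single clusters were less certain than genes, since the median over the 190 clusters was 2 tags in replicate 1 and 8 in replicate 2, and 56 clusters had 1 replicate 1 tag. Across clusters of at least 10 tags, Spearman's rho between the replicates was 0.970 for the 12 of MMP1, 0.810 for the 19 of PTGS2, 0.591 for the 51 of PLOD2 and 0.234 for the 11 of EREG. Clusters of an mRNA come from the same libraries, and these values carry no p. The order of the EREG clusters was thus poorly fixed, and that of the MMP1 clusters well.

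**Figure D5:**
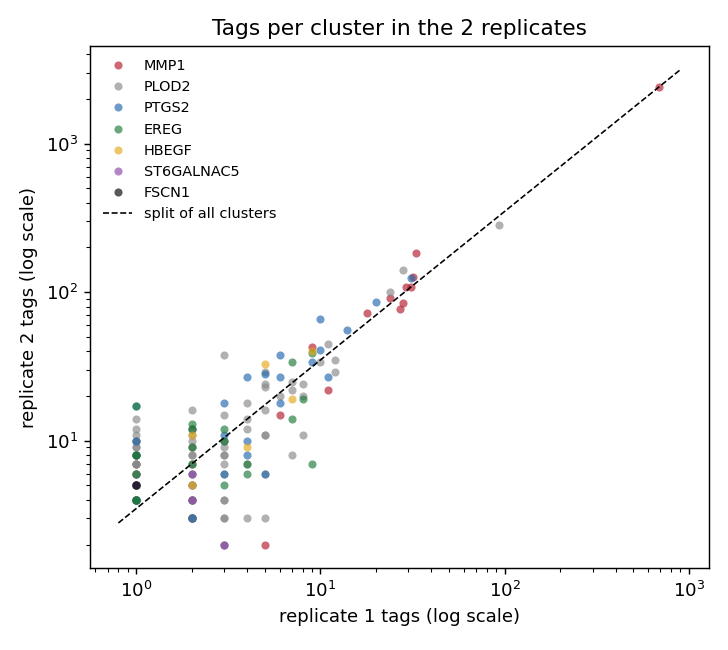
Tags per cluster in replicate 1 (horizontal) and replicate 2 (vertical), both axes log, for the 190 clusters of 7 mRNAs; the dashed line is the split over all clusters. Points near 1 or 2 replicate 1 tags spread widely around the line, and the MMP1 cluster of 687 and 2396 tags lies on it.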

How the data were processed

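The authors mapped the HITS-CLIP reads, collapsed them to unique tags with a degenerate barcode and grouped overlapping tags into clusters. The submitters' processing notes name Novoalign and hg18. The deposited values are tag counts for every cluster (replicate 1, replicate 2 and a total), with a location label and gene symbol. The total was below the sum of the replicates in 34 of the 190 clusters, by at most 3 tags. The total was used for filters, ranks, shares with intervals, medians and tags per kb, and the replicate columns for values per replicate and the split test. The table does not hold whole libraries, so its column sums are not depths. Clusters of at least 10 tags were summed per gene where not stated otherwise. Cluster length is end minus start, and whether starts count from 0 or 1 is not known. All 190 clusters lay on the chromosome and strand of their gene on GRCh37, but 0 overlapped it, so reference sequence was taken by gene from GENCODE v44 and never by cluster position.

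Wilson intervals (95%) cover counting error only. Splits between replicates were tested with an exact binomial test (SciPy 1.17.1, with pandas 2.3.3 and NumPy 2.4.6, threshold 0.05), which was tested on simulated data. The labels do not say whether the replicates were separate cultures, so the spread between them may be technical. All 9 members are named, with the genes next to each member over 1000 tags in the order by tags, the listed markers, and every related gene over 100 tags except 1 that is not reported here. Members and lists were chosen with earlier results of these data known. The values of the median gene with other tag minimums or without a replicate were added after seeing the data.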

Additional observations from a re-analysis of the deposited data

How the results depend on the processing

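No paired analysis was possible because the labels give a single group. Of 112 alternative values for single mRNAs, 64 stayed within the replicate SD, the counting interval or, for ranks, 1.5 times the reported value, and 48 did not. Part of the 64 was fixed in advance, so this count does not measure stability. With 2 replicates, each always lies within 1 SD of their mean. HBEGF and EREG had 3′UTR clusters only and MMP1 none labelled 3′UTR alone, so their shares in 3′UTR alone could not move. The number of mRNAs over 100 tags was 3 with clusters of at least 30 tags, and between 2 and 5 with a replicate left out. With a replicate left out, the limits of 10 and 100 tags were applied unscaled to the fewer tags of the other. These values therefore mix the choice of replicate with its number of tags. The median over every mRNA with a cluster in the setting was 310 tags with all clusters, where ST6GALNAC5 and FSCN1 also counted. This median was between 190 and 639 with a replicate left out, and HBEGF and EREG did not count without replicate 2. The set of mRNAs thus changed along with the setting. The number with a larger 3′UTR share than the median gene was between 1 and 3 with a replicate left out. Without replicate 2, HBEGF and EREG had no cluster of at least 10 tags, so the smaller replicate alone does not resolve them. The genes with an uneven split numbered 7 by a beta-binomial test, 117 with all clusters and 15 with clusters of at least 30 tags. In each case none of the members passed, with smallest adjusted p between 0.475 and 1 in the exact and beta-binomial tests. The share of tags in any 3′UTR label was 72.3% for MMP1, against 0 in 3′UTR alone, and 51.5% for PLOD2, against 38.8%. Per kb of cluster the rank of MMP1 moved from 76 to 16 and that of EREG from 2099 to 3473. The rank of PLOD2 moved from 374 to 1404 and that of PTGS2 from 839 to 937. This put PTGS2 above PLOD2 over all regions together, though not in 3′UTR alone or in CDS alone.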

Other observations

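Downstream of PLOD2, clusters with no gene name continued on the same strand from 27 nt past its last cluster. The run, taken to the first gap over 10 kb by a rule chosen after the data were seen, held 409 clusters and 5302 tags over 184012 nt (chr3:147085826-147269838), 1245 tags in replicate 1 and 4143 in replicate 2. Of these, 46 clusters with 1269 tags were labelled as lying within 10 kb downstream of a gene. The largest (chr3:147262298-147262763) held 22 tags in replicate 1 and 92 in replicate 2, below the 93 and 282 of the largest PLOD2 cluster. No PTGS2, HBEGF, EREG, MMP1 or FSCN1 cluster had an unnamed cluster within 10 kb on its strand.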
